A study of Eutrema salsugineum with 2 samples.

Results

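The most abundant transcripts of *E. salsugineum* rosettes were taken as the annotated genes (IDs starting with Thhalv) with at least 500 raw reads in the SH and YK libraries together. Of the 17888 genes with reads, 213 met this rule, which is 1.19%, after 3 genes were left out by their ID. The summed reads chose these genes, so their high abundance is a description and not a finding. SH is the Shandong accession from China and YK the Yukon accession from Canada of this salt-tolerant relative of *A. thaliana*. The labels describe SH as having less rosette biomass, thicker leaves and lower drought tolerance than YK. Both groups were whole rosettes of well-watered, otherwise untreated plants aged 4 weeks, kept under 12 h of light, at 22 °C by day and 20 °C by night, and collected at mid-night. The methods name 4 pools of 5 rosettes for each accession and the series design names 1 replicate. With 1 column of reads for SH and 1 for YK, no difference in reads below has a replicate check.

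In a green rosette a small number of nuclear genes, mostly those for the photosynthetic apparatus, carbon fixation and the ribosome, usually supply much of the messenger RNA. A read count from one library measures the share of that RNA that a gene takes, so a single very abundant transcript lowers the share of all the others. Counts also grow with transcript length, and levels of different genes can therefore be compared only per length.

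The SH library held 482275 reads on genes and the YK library 431705. Reads were compared as deposited, because the median-of-ratios size factors were 1 for both libraries. Each ratio is the log2 of YK to SH reads with 0.5 reads added to each count, and each interval is a 95% Clopper-Pearson interval that covers counting error only. A gene was called when a two-sided exact binomial test against equal reads gave an adjusted p under 0.05 and the log2 ratio was at least 1 in size. Adjustment followed Benjamini and Hochberg and ran over the 10036 genes of at least 10 reads. What is tested is thus this pair of libraries, not the accessions. In RNA of whole rosettes, fewer cells of a type and less RNA per cell cannot be told apart. Of the tissue markers set out for checking, none of the 6 leaf markers was paired with a gene ID here, so the label was not checked against them. The 1 root marker that was paired, the peroxidase gene Thhalv10027848m.g (hit AT5G42180), had 0 reads in SH and 1 in YK.

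The abundant genes took 39.6% of the SH reads (interval 39.5 to 39.8%) and 34.2% of the YK reads (interval 34.1 to 34.3%). Most of this difference came with one gene, Thhalv10015083m.g. Without it the other 212 held 32.5% of the whole SH library (interval 32.4 to 32.7%) and 33.6% of the YK library (interval 33.5 to 33.8%). The order of the libraries depended on the total: with the gene taken out of the library totals too, the 212 held 35.0% of SH and 33.8% of YK. Without both Thhalv10015083m.g and the leading gene of YK, the remaining 211 held 31.4% of the whole SH library and 30.7% of the YK library. The 5 members leading SH held 13.1% of that library, and the 5 leading YK held 6.67% of theirs. Further down, the first 100 members held 31.9% in SH and 26.3% in YK. The 1335 annotated genes of 100 to 499 reads, the next most abundant, held 28.2% of SH and 30.3% of YK. In SH 451 genes made up 50% of all reads, and in YK 616 genes did. The SH values for the leading 5, the first 100 and the 451 genes all include Thhalv10015083m.g, which alone held 7.10% of SH. They therefore do not show that the rest of the SH library was more concentrated than YK.

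**Figure D1:**
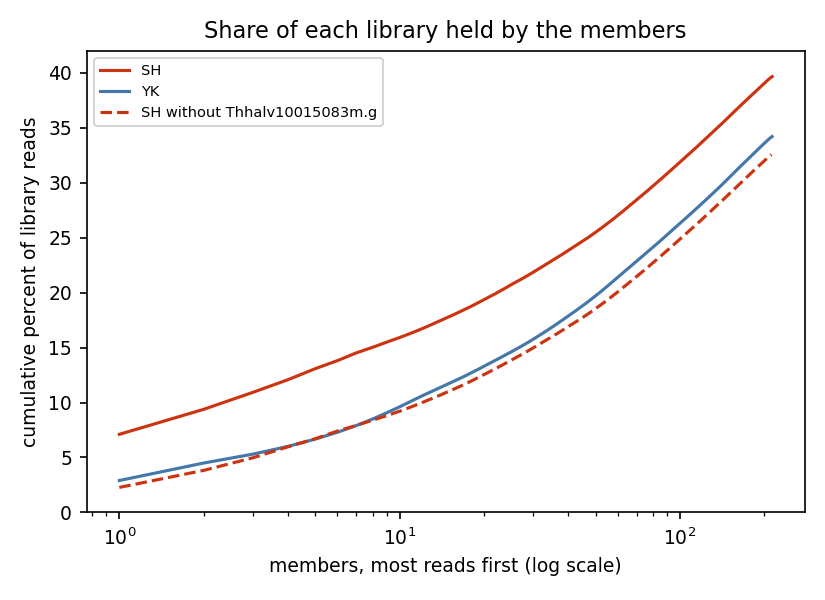
Cumulative percent of all library reads (vertical axis) held by the members, ordered from most reads (horizontal axis, log scale), in SH, in YK and in SH after Thhalv10015083m.g is taken out of the members but not out of the library total. The SH curve starts at 7.10% and ends at 39.6%, the YK curve starts at 2.90% and ends at 34.2%, and the dashed SH curve runs close to YK and ends at 32.5%.

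Thhalv10015083m.g was the most abundant transcript of SH and lies between positions 3882704 and 3884140 of scaffold 2 in the Phytozome v9.1 assembly. It had 34265 SH reads and 2494 YK reads. It took 7.10% of the SH library (interval 7.03 to 7.18%) and 0.578% of the YK library (interval 0.555 to 0.601%). The gene was 13.7-fold lower in YK, with a log2 ratio of -3.78 and an interval from -3.84 to -3.72. No other member had a log2 ratio below -1.75. By reads it still ranked 9 in YK. The paper's qRT-PCR gave a far larger difference in the same direction, so how abundant the transcript is in YK is uncertain. The sources used here give no *A. thaliana* hit for this gene, so it has no name or role here. Its difference of 31771 reads equals 62.8% of the 50570 reads by which the SH total exceeded the YK total. Of the 4 detected loci nearest to it, the one 141 bp away had 36 SH reads and 15 YK reads, and the other three had 4 to 8 reads in each library.

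The study designed a qRT-PCR primer pair for this gene. The pair is printed because it is the sequence in the sources used here that ties the leading ID to a transcript. All letters are in lower case, 5′ to 3′, and no position is marked.
Thhalv10015083m.g forward: accgccacttgaccaggat
Thhalv10015083m.g reverse: cttccatgcttgtcgttcttctt
The primers are 19 and 23 bases long.

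Thhalv10014413m.g, between positions 15536245 and 15537954 of scaffold 2, led the YK library with 12532 reads against 5546 in SH. It took 2.90% of YK reads (interval 2.85 to 2.95%) and 1.15% of SH reads (interval 1.12 to 1.18%). It ranked 1 in YK and 4 in SH, so it was among the leading transcripts of both libraries, and it was 2.26-fold higher in YK. The log2 ratio was 1.18, with an interval from 1.13 to 1.22. The annotation rows used here pair no hit with this gene. They held only 19 of the 213 members, so a hit may exist. Its 4 nearest detected loci had 0 to 15 reads in YK and 2 to 19 in SH.

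Per length the same genes led. Thhalv10015083m.g had 23845 reads per kb of locus in SH (rank 1) and 1736 in YK (rank 9). Thhalv10014413m.g had 3243 reads per kb in SH (rank 6) and 7329 in YK (rank 1). Locus length runs from start to end with introns, so it overstates the length of the transcript. Of the 10 members with the most reads, 8 in SH and 7 in YK were also among the 10 with the most reads per kb. The order below the leaders depended more on length: of the first 213 genes by reads per kb, 154 were members in each library, against 190 in SH and 185 in YK by reads.

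The order of the leading genes differed between the libraries, while most of the same genes led both. Of the 10 members with the most reads in each library, 7 were shared, and of the first 20, 18 were. Thhalv10019202m.g, on scaffold 9 between positions 9839267 and 9840488, ranked 2 in both, with 10974 SH reads and 6870 YK reads. Its log2 ratio of -0.68 (interval -0.72 to -0.63) was past counting error but under the fold rule. The gene that ranked 3 in SH ranked 4 in YK, with 7477 SH reads and 3051 YK reads. Thhalv10019053m.g, on scaffold 9 between positions 2447625 and 2448881, ranked 5 in SH and 16 in YK, with 4810 SH reads and 1430 YK reads. It was 3.36-fold lower in YK, and its log2 ratio of -1.75 had an interval from -1.84 to -1.66.

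The genes that moved up into these places had smaller ratios. Those that ranked 3, 5, 6 and 7 in YK ranked 8, 10, 12 and 14 in SH, and their log2 ratios of 0.53, 0.50, 0.50 and 0.57 were all under the fold rule. The first of them had 2430 SH reads and 3507 YK reads. Of the 10 members leading SH, 7 had more reads in that library, and of the 10 leading YK, 6 had more in YK.

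**Figure D2:**
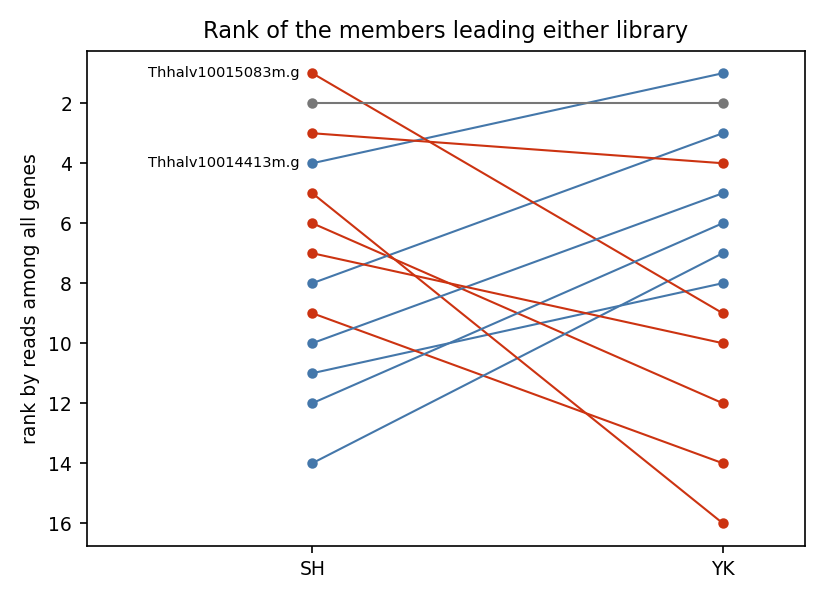
Rank by reads among all genes (vertical axis, first at the top) of the members that are among the first 10 in SH or in YK, joined between SH (left) and YK (right). Red lines rank lower in YK, blue lines higher and the grey line the same: Thhalv10015083m.g goes from 1 to 9, Thhalv10014413m.g from 4 to 1, and Thhalv10019202m.g stays at 2.

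Over all 213 members the order was broadly shared, with a Spearman correlation of 0.74 between the reads of SH and YK and a Pearson correlation of 0.83 between their log10 values. These are across genes, which are not replicates, and the members were chosen on the sum of the same reads. The median change of rank among all genes was 29 places, and 49 members moved by under 10 places. Ranks changed by over 100 places for 27 members, of which 17 ranked lower in YK and 10 higher. The furthest move was that of Thhalv10019355m.g, on scaffold 9 between positions 2609958 and 2610811, from 393 in SH to 60 in YK. It had 168 SH reads and 699 YK reads and was 4.16-fold higher in YK. Its log2 ratio of 2.05 (interval 1.81 to 2.31) was the highest of the members, and the exact binomial test gave an adjusted p of 1.21e-74. With 168 SH reads it could be a member only by having more reads in YK, so some excess in YK came with its membership. For this gene the p is therefore a description. Thhalv10019053m.g and Thhalv10019355m.g have no paired hit in the annotation rows used, which left out most members.

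Reads per member ran from 167 to 34265 in SH, with a median of 453, and from 166 to 12532 in YK, with a median of 408. More reads came from SH for 119 members and from YK for 94, and with total reads as the scaling the ratio favoured SH for 96 and YK for 117. The log2 ratios ran from -3.78 to 2.05, with a median of -0.09 and quartiles of -0.48 and 0.25, beside a median of 0 over all genes tested. Annotated genes of 250 to 499 reads, just below the rule, had a median of -0.11, so this lean was not particular to the members. In that class 189 genes had more SH reads and 125 had more YK reads. Total reads as the scaling moved the median of the members to 0.065 and that of all genes tested to 0.16. For 137 members, or 64.3%, the ratio was under 0.5 in size. At this depth the median width of the interval was 0.40 on the log2 scale, and for 178 members the whole interval lay within 1 of 0.

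Of the 213 members, 26 were called, which is 12.2%, where the call rate was 6.62% over all genes tested and 11.0% over the 1361 genes of 100 to 499 reads. The share in either direction was therefore near that of the next most abundant genes. Fewer reads in YK were called for 20 members, or 9.39% (background 3.88%, and 6.61% at 100 to 499 reads). More reads in YK were called for 6 members, or 2.82% (background 2.74%, and 4.41% at 100 to 499 reads). The split rests on the scaling. With total reads as the scaling, every log2 ratio is 0.16 higher, and 10 members (4.69%) were called lower in YK, where the background was 3.09% and 5.07% at 100 to 499 reads. The same scaling called 6 members (2.82%) higher in YK, where the background was 4.36% and 6.61% at 100 to 499 reads.

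By the interval alone, 8 members were at least 1 log2 unit lower in YK and 3 at least 1 higher. No share of all genes is given for this rule, so these counts are a description. They include Thhalv10000348m.g, with 204 YK reads, and Thhalv10019355m.g, with 168 SH reads, which had to differ to be members. The adjusted p alone passed for 134 members, or 62.9%, beside 9.86% of all genes tested and 26.0% at 100 to 499 reads. Of these, 86 (40.4% of the members) had fewer reads in YK and 48 had more, where fewer reads in YK passed for 5.84% of all genes tested and 15.9% at 100 to 499 reads. With total reads as the scaling, 64 passed with a ratio that favoured SH and 75 with one that favoured YK. Counting error shrinks with reads, so this share does not compare members with less abundant genes.

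A gene could enter the set through one library only. In 38 members one of the libraries held under 250 reads, 13 of them in SH and 25 in YK, and such genes had to differ to reach the sum of 500 reads. Of the 175 members with at least 250 reads in each library, 16 were called. This is 9.14%, beside 6.62% of all genes tested and 11.0% at 100 to 499 reads, where no such minimum was set in each library. Of these, 12 had fewer reads in YK (6.86%, beside 3.88%, and 6.61% at 100 to 499 reads). The other 4 had more (2.29%, beside 2.74%, and 4.41% at 100 to 499 reads). Total reads as the scaling called 6 lower in YK (3.43%, beside 3.09%, and 5.07% at 100 to 499 reads). The same scaling called 4 higher (2.29%, beside 4.36%, and 6.61% at 100 to 499 reads). At the edge of the rule, the members closest to it had 296 and 205, 250 and 252, and 289 and 217 reads in SH and YK, and the genes just outside it had 217 and 279, 222 and 274, and 288 and 208. The XLOC loci assembled by the authors, which the rule does not take, included 2 with over 500 reads: XLOC_011078 with 351 and 208 and XLOC_014720 with 532 and 476.

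**Figure D3:**
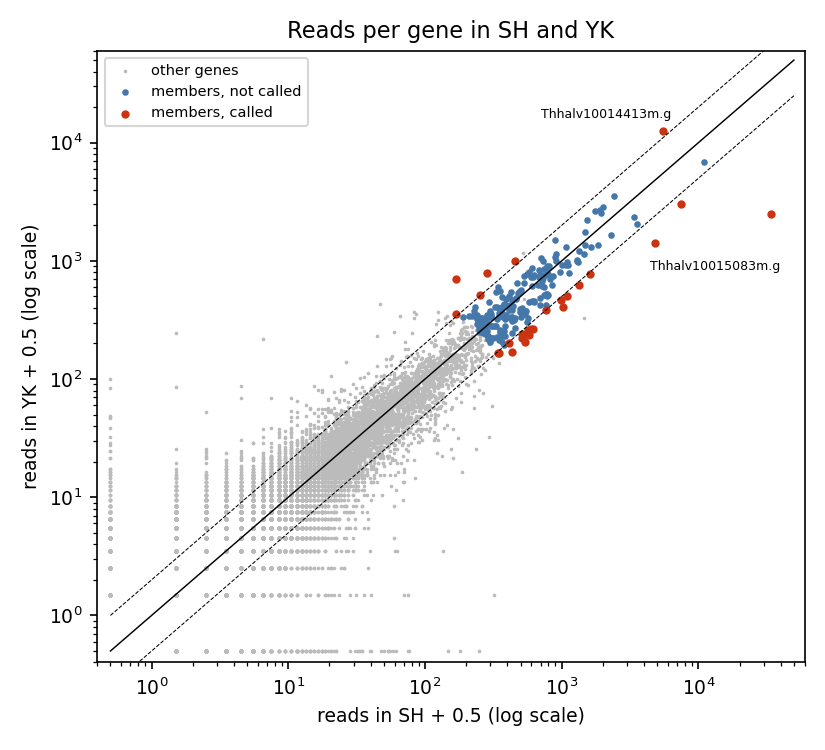
Reads per gene in SH (horizontal axis) and YK (vertical axis), both on log scales with 0.5 reads added. Grey points are genes outside the set, which include the 3 genes left out, blue points are members that were not called and red points are the 26 called members. The solid line marks equal reads and the dashed lines a log2 ratio of 1 in size, and Thhalv10015083m.g lies far below the lower dashed line with 34265 SH reads and 2494 YK reads.

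The spread of the ratios did not keep falling with depth as counting error did, and it was widest in the deepest class. Among annotated genes of 50 to 99 reads the interquartile range of the log2 ratio was 0.75, where counting error alone gives 0.48. It was 0.72 at 100 to 249 reads against 0.33 and 0.67 at 250 to 499 reads against 0.22. Among members of 500 to 999 reads it was 0.68 (n = 125) against 0.16, among those of 1000 to 1999 reads 0.74 (n = 58) against 0.11, and among those of 2000 or more 0.85 (n = 30) against 0.07. The interval covered equal reads in 59 members only. How far libraries of one accession would spread is not known, since each accession has 1 library.

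The calls depend on that spread. When edgeR's exact test was given a coefficient of variation of 0.2, it called 4 members (1.88%), where the background was 1.99% and 3.16% at 100 to 499 reads. With 0.4 it called Thhalv10015083m.g alone (0.469%, background 0.359%, and 0.514% at 100 to 499 reads). The 4 were Thhalv10015083m.g and Thhalv10019053m.g, lower in YK, and Thhalv10019355m.g and 1 more member, of 285 SH reads and 790 YK reads, higher in YK. Thhalv10019355m.g, with 168 SH reads, had to differ to be a member, so its call is a description here too.

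**Figure D4:**
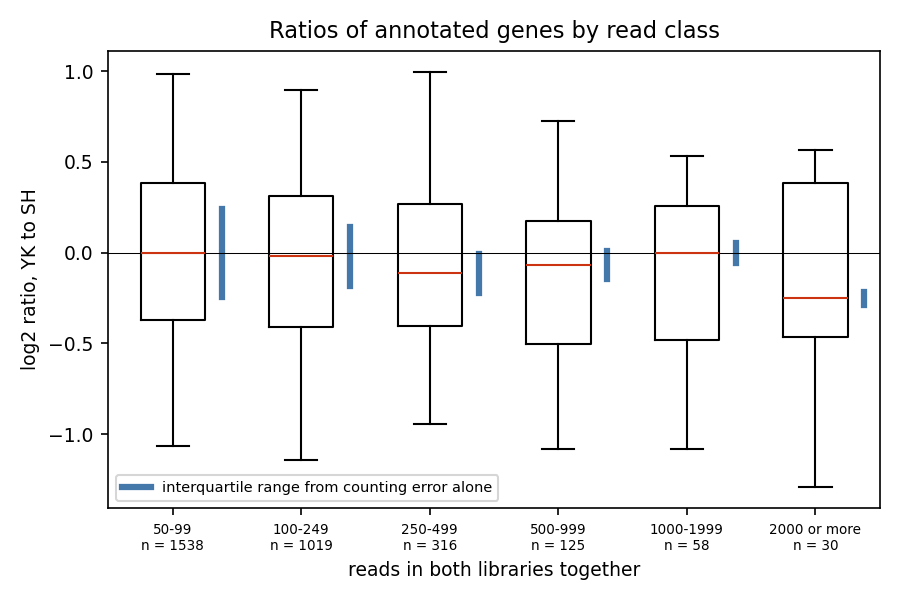
Log2 ratio of YK to SH reads (vertical axis) of annotated genes in classes of summed reads (horizontal axis, with the number of genes). Boxes give the quartiles with the median in red, whiskers the 5th and 95th percentiles, and blue bars the interquartile range that counting error alone would give: the boxes keep a height of 0.67 to 0.85 from 250 reads upward while the bars shrink from 0.22 to 0.07.

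Members were shorter than other genes and the ratio moved with length. The median locus length was 1710 bp, against 2214 bp over all annotated genes with reads and 1942 bp at 100 to 499 reads. The 106 shorter members had a median log2 ratio of -0.20, and the 107 longer ones had 0.02. At 100 to 499 reads the corresponding medians were -0.16 and 0.06. The Spearman correlation of ratio with length was 0.18 among members and 0.18 at 100 to 499 reads, so the relation was not particular to members. Of the 20 members called lower in YK, 14 were in the shorter group, as were 4 of the 6 called higher. No share of all genes is given for calls by length, so these counts are a description. The part of length in the direction of the calls was not tested.

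The members lay on 24 scaffolds. Scaffold 5 held 33 of them, which is 1.46% of its annotated genes with reads, scaffold 2 held 24 (1.03%) and scaffold 3 held 14 (2.17%). Members rarely stood side by side: 5 pairs lay within 10 kb of each other. In the closest pair, on scaffold 13 with 697 bp between the genes, SH and YK reads were 391 and 472 for one gene and 606 and 616 for the other. A further 7 members overlapped another detected locus, which had at most 27 reads.

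For 18 members the study's gene annotation, of which the first 1998 rows were used, pairs the ID with an *A. thaliana* hit. Those rows do not follow the order of the reads. Of the 18, 13 had more SH reads and 5 had more YK reads, and 1 was called. The roles given here are those of the *A. thaliana* genes. The groups were formed after the values had been seen, so they are descriptions.

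Photosynthesis held 7 of the 18, none of which was called, with a median log2 ratio of -0.01. The highest was Thhalv10001257m.g, whose hit AT2G26500 encodes the PetM subunit of the cytochrome b6f complex, which passes electrons between the photosystems. It had 1931 SH reads and 2553 YK reads and ranked 11 and 8. Its log2 ratio of 0.40 (interval 0.32 to 0.49) was past counting error and under the fold rule. FBA1 (Thhalv10000191m.g, hit AT2G21330), a chloroplast fructose-bisphosphate aldolase of the Calvin cycle, had 683 SH reads and 843 YK reads, and its interval ran from 0.16 to 0.45. PSBX (Thhalv10002124m.g, hit AT2G06520), a small subunit of photosystem II, had 492 SH reads and 560 YK reads, and the adjusted p of the exact binomial test was 0.218, or 0.00218 with total reads as the scaling.

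Other chloroplast genes leaned to SH or lay near equal reads. Thhalv10000365m.g, whose hit AT1G52220 encodes a thylakoid membrane protein of the CURT1 family, which curves the margins of grana, had 369 SH reads and 229 YK reads. Its log2 ratio was -0.69 (interval -0.93 to -0.45). PSI-P (Thhalv10001663m.g, hit AT2G46820), of the same family, had 441 SH reads and 327 YK reads, and its log2 ratio was -0.43 (interval -0.64 to -0.22). Neither was called. With total reads as the scaling, the adjusted p of PSI-P by the exact binomial test went from 0.00100 to 0.0777. The triose phosphate translocator TPT (Thhalv10000901m.g, hit AT5G46110), which exports fixed carbon from the chloroplast, had 360 SH reads and 357 YK reads. Its interval ran from -0.23 to 0.20, and its sign turned under 3 of the 4 other scalings. LIL3:2 (Thhalv10000997m.g, hit AT5G47110), a light-harvesting-like protein that acts in chlorophyll and tocopherol synthesis, had 275 SH reads and 238 YK reads, with an interval from -0.46 to 0.05.

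Ribosomal proteins held 5 of the 18, with a median log2 ratio of -0.37, and none was called. For 3 of them the adjusted p passed with fewer reads in YK, where 40.4% of all members and 5.84% of all genes tested passed in this direction. With 5 genes, grouped after the values were seen, this is no evidence on ribosomal genes. The gene with the hit AT2G01250, of the L7 family of the large ribosomal subunit, had 606 SH reads and 461 YK reads. The gene with AT4G18100, of the L32 family, had 370 and 251, and that with AT1G35680, which encodes the chloroplast ribosomal protein L21, had 576 and 446. With total reads as the scaling the first and the last of these no longer passed, with adjusted p values of 0.0681 and 0.134 from the exact binomial test. The other two did not pass with reads as deposited. The gene with the hit AT2G43460, of the L38 family, had 348 and 364 reads, with an interval from -0.15 to 0.28. The gene with the hit AT3G62870, of the L7a family, had 282 and 345 reads and an interval from 0.06 to 0.52, and its adjusted p by the exact binomial test was 0.105. It passed with more reads in YK under 3 of the 4 other scalings, at 0.00202 with total reads, 0.0298 without the 5 genes leading each library and 0.0268 without Thhalv10015083m.g.

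The remaining named members included 5 linked to defence, the cell wall or lipids, which all had fewer reads in YK with an adjusted p under 0.05, and 1 of them was called. Having been grouped after the values were seen, and with 40.4% of all members passing in this direction, the group is no evidence on such genes. The called gene was Thhalv10000348m.g, whose hit AT2G22170 encodes a protein with a PLAT lipid-binding domain. It had 543 SH reads and 204 YK reads and ranked 89 in SH and 284.5 in YK, with ties averaged. Its log2 ratio was -1.41, the interval ran from -1.65 to -1.18, and the exact binomial test gave an adjusted p of 6.75e-34. With 204 YK reads it could be a member only by having more reads in SH, so this p is a description too. Of the 4 other detected genes with this hit, the most abundant had 27 and 13 reads. BG3 (Thhalv10003127m.g, hit AT3G57240), a beta-glucanase of the family that acts on fungal cell walls, had 384 SH reads and 230 YK reads, and its log2 ratio was -0.74 (interval -0.98 to -0.50). XTH31 (Thhalv10002627m.g, hit AT3G44990), an enzyme that acts on the xyloglucan of the cell wall, had 346 SH reads and 226 YK reads, and its log2 ratio was -0.61 (interval -0.86 to -0.37).

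The chitinase CHI (Thhalv10001581m.g, hit AT2G43570) was the most abundant of these, with 1289 SH reads and 1014 YK reads, and ranked 26 and 27. Its log2 ratio was -0.35 (interval -0.47 to -0.23), while the other gene with this hit, Thhalv10001575m.g, which is below 500 reads, had 105 and 138. Thhalv10001680m.g, whose hit AT2G45180 encodes a protein of the lipid transfer superfamily, had 429 SH reads and 311 YK reads, and its log2 ratio was -0.46 (interval -0.68 to -0.25). The last of the 18, Thhalv10000960m.g with the hit AT5G47435, a formyltetrahydrofolate deformylase of folate metabolism, had 260 SH reads and 252 YK reads and an interval from -0.30 to 0.21.

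**Figure D5:**
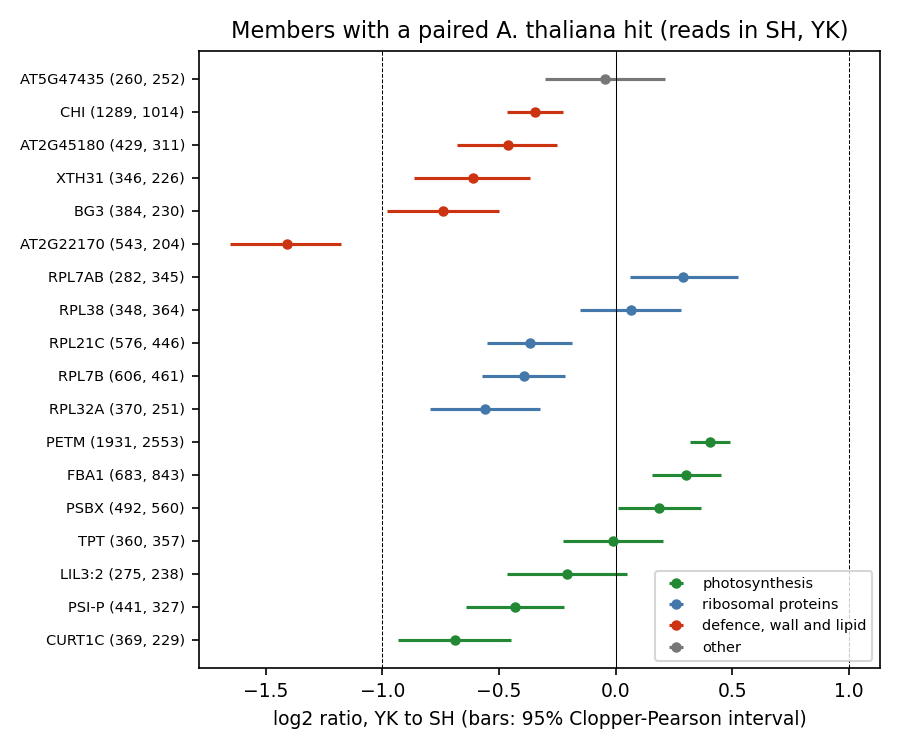
Log2 ratio of YK to SH reads (horizontal axis) of the 18 members with a paired *A. thaliana* hit, with the reads in SH and YK in brackets. Bars are 95% Clopper-Pearson intervals and dashed lines mark a ratio of 1 in size: photosynthesis genes lie on both sides of 0 from -0.69 to 0.40, while the 5 genes of defence, wall and lipids lie between -1.41 and -0.35.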

How the data were processed

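Rosette cDNA of SH and YK, 1 library each, was pyrosequenced without strand. The authors trimmed the reads, aligned them to the SH genome of Phytozome v9.1 and kept those that mapped to one place. YK reads were thus aligned to the genome of the other accession, and the paper gives a slightly lower uniquely aligned share for YK than for SH. The effect of this on the ratios was not tested. The deposited values are raw counts per gene, which the authors made with HTSeq in union mode. Reads that fit several gene copies were thus dropped, so values of genes with near-identical copies are uncertain, and antisense reads cannot be told apart. Intervals cover counting error only, since reads carried no molecular identifiers. The ratio and test columns of the authors' own comparison were not used. 1 blank row was left out.

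Exact binomial tests (scipy 1.17.1) were tried on simulated data with known fold changes and counting error only. That trial could not show how they behave at the wider spread of the real ratios. TMM factors and exact tests with an assumed spread came from edgeR 4.0.16. Alternatives were other scalings, filters, fold rules, pseudocounts and read minimums.

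The members and lists were chosen with earlier results of these data known. Genes were to be named by reads, ratio, rank change and paired hit. Of the members without a paired hit, only 5 were given by ID: the leader of each library, the gene ranked 2 in both and the member furthest from equal reads in each direction among the rest. This was decided after their values were seen, and other such members are given by rank or reads. The annotation gives hit IDs without descriptions, so word-based gene lists could not be applied and the paired hits were grouped by hand. None of the members matched the RefSeq gene table, and no genome was used, so promoters and proteins were not analysed here.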

Additional observations from a re-analysis of the deposited data

How the results depend on the processing

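Of 26 members called (12.2%, background 6.62%), 16 were called with total reads as the scaling. Of the 16, 6 were higher in YK (2.82%, background 4.36%) and 10 lower (4.69%, background 3.09%). A fold rule of 0.5 gave 76 and no fold rule 134 (62.9%, background 9.86%). The exact test of edgeR gave 4 (1.88%, background 1.99%) with a coefficient of variation of 0.2. With 0.4 it gave 1 (0.469%, background 0.359%). The other scalings gave 21 to 27, and low-count filters and the pseudocount left the count at 26. No share of all genes is given for the fold rule of 0.5, the other scalings or the filters. Those counts show only the effect of the setting. In all, 16 genes were called under each scaling, one of which, total reads without Thhalv10015083m.g, was chosen after seeing the data. With a minimum of 250 or 1000 reads, 529 or 88 genes would be members. The median log2 ratio of -0.09 was 0.065 with total reads, -0.12 with TMM, -0.039 without the 5 most abundant genes of each library, -0.033 with total reads without Thhalv10015083m.g, -0.11 for members of 1000 reads or more and -0.045 for those with 250 reads in each library. Each scaling moved the median over all genes tested by the same amount as that of the members, with total reads from 0 to 0.16. With Thhalv10015083m.g out of the library total as well, members held 35.0% of SH and 33.8% of YK, and with the 3 left-out genes kept in, 40.2% and 34.7%. Signs turned for 2 named genes near equal reads: with total reads, without the 5 most abundant genes and without Thhalv10015083m.g, the log2 ratio was 0.15, 0.044 and 0.050 for Thhalv10000901m.g and 0.11, 0.011 and 0.017 for Thhalv10000960m.g. By reads per kb, 154 members were among the first 213 genes in each library. No replicate could be left out. No paired analysis was possible because each accession has 1 library.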
